A study of Mus musculus with 8 samples.

Results

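The response of bone marrow hematopoietic stem cells (HSCs) to hemolytic anemia was examined across the transcriptome by comparing 3 RNA-seq libraries of HSCs from anemic mice (PHZ BM HSC) with 3 libraries of HSCs from control mice (control BM HSC). Mice of both groups were wild-type (WT) and of strain C57BL/6. Anemic mice received phenylhydrazine (PHZ) at 60 mg/kg by intraperitoneal injection on consecutive days, 2 injections in all, and cells were sorted on day 3 after the last of them. Control samples are labelled as given PBS, and its volume and schedule are not given. HSCs were lineage-negative, Sca-1+, c-kit+, CD150+ and CD48-/low cells, and the age and sex of the animals behind each library, and any pooling of animals, are not given in the labels. The series also holds 2 libraries of spleen HSCs from anemic mice, which did not enter this comparison. Genes were compared when they were listed in both marrow tables and reached 1 FPKM (a read level corrected for gene length and library depth) in at least 2 of the 6 libraries. This kept 11031 of the 15142 genes listed in both tables, and 16729 genes were listed in any table of the series. At the edge of that rule, the second highest value of Apoa1 was 1.001 FPKM and it entered, while Il18r1 reached 0.9996 FPKM and did not.

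HSCs sit at the top of the blood hierarchy, divide rarely, and are held in the marrow niche by adhesion molecules, chemokines and cytokines. PHZ oxidizes hemoglobin, so that red cells are destroyed and their heme is cleared by macrophages, and anemia raises erythropoietin and, as a systemic stress, glucocorticoids. Cells that leave the resting state switch on replication and mitosis genes, while cells that perceive a stimulus, including isolation itself, switch on immediate early genes within minutes.

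The 6 libraries held 8216167 to 13199736 reads, as worked back from the FPKM steps, and the ribosomal RNA precursor Rn45s took 43.3% to 47.5% of them. A library contained 11400 to 12259 genes counted with 10 reads or more. Across the genes tested, which are not independent replicates, log2 levels correlated with r between 0.901 and 0.942 among control libraries and between 0.957 and 0.976 among PHZ libraries, and PHZ replicates 1 and 2 were the closest pair. PHZ replicate 3 stood more than 2-fold above both other PHZ libraries, on the FPKM + 1 scale, in 125 genes, against 23 for replicate 1 and 25 for replicate 2. Control replicate 1 stood that far below both other control libraries in 470 genes and above them in 222. The labelled cell type was checked against its markers. Kit was at 87.7 to 149 FPKM and Ly6a (Sca-1) at 85.6 to 177. Hlf lay at 19.9 to 41.6 FPKM and Procr at 32.2 to 77.6. Levels were lower for Mecom (4.95 to 10.4 FPKM), Slamf1 (2.26 to 9.19), Fgd5 (1.86 to 4.74) and Ctnnal1 (1.68 to 3.40). The lineage panel of the sort included antibodies against Gr-1, CD2, CD3 and CD8. Of the genes behind these, Cd2 was at 0 in every library and Cd3e, Cd8a and Ly6g reached at most 0.105, 0.158 and 2.54 FPKM. Itgam and Cd79a, markers of myeloid and B cells outside that panel, reached 2.44 and 1.55 FPKM, and Cd48 stayed at or below 3.38. The columns of the marrow tables carry the letters WBM, a usual short form of whole bone marrow, while the sample titles name BM HSC. HSC genes were present in all 6 libraries. Other genes of the T and NK cell list were not at 0, as Lat was at 11.2 FPKM or more and Gata3 at 3.95 FPKM or more in every library, and the list summed to 40.0 to 86.8 FPKM. The labels do not say that libraries came from separate animals, so p-values measure the spread between these libraries.

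Of the 11031 genes, 281 passed the limma test at an adjusted p below 0.05 (2.55% of genes tested). PHZ BM HSC were higher in 151 of them (1.37%) and lower in 130 (1.18%). In all 281 the 3 values of a group lay on the same side of the 3 values of the other, as they did for 1393 genes above (12.6%) and 1288 below (11.7%) among all genes tested. At an unadjusted p below 0.05 there were 1959 genes. Fold changes are given as differences of log2(FPKM + 1) with the standard error of the fit, which understates changes of genes with few FPKM. They ran from 5.70 for Fos to -3.02 for Pbk, and the median over all genes tested was 0.02. Outside the lists of immediate early, mitosis and DNA replication genes, 130 genes were higher and 62 were lower. The number of calls depended on single libraries, since it was 85 without PHZ replicate 1, 81 without PHZ replicate 2 and 121 without control replicate 3. Without control replicate 1, the control library that stood furthest from its group, it was 228, of which 181 were among the 281. Without PHZ replicate 3, the PHZ library that did so, it was 269, of which 200 were among the 281. Of the called genes named below with values, Ccl9, Nfkbiz, Spi1, Robo4, Rfng, Pde4b, Mylip, Fdft1, Ppbp and Dnmt1 lost their call without PHZ replicate 3, at adjusted p-values of 0.0519 to 0.103. A core of 64 genes, 39 higher and 25 lower, was called whichever of the 6 libraries was omitted. In bulk RNA from sorted cells, a lower value can come from fewer cells of a type or from less RNA per cell, and these cannot be told apart.

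**Figure D1:**
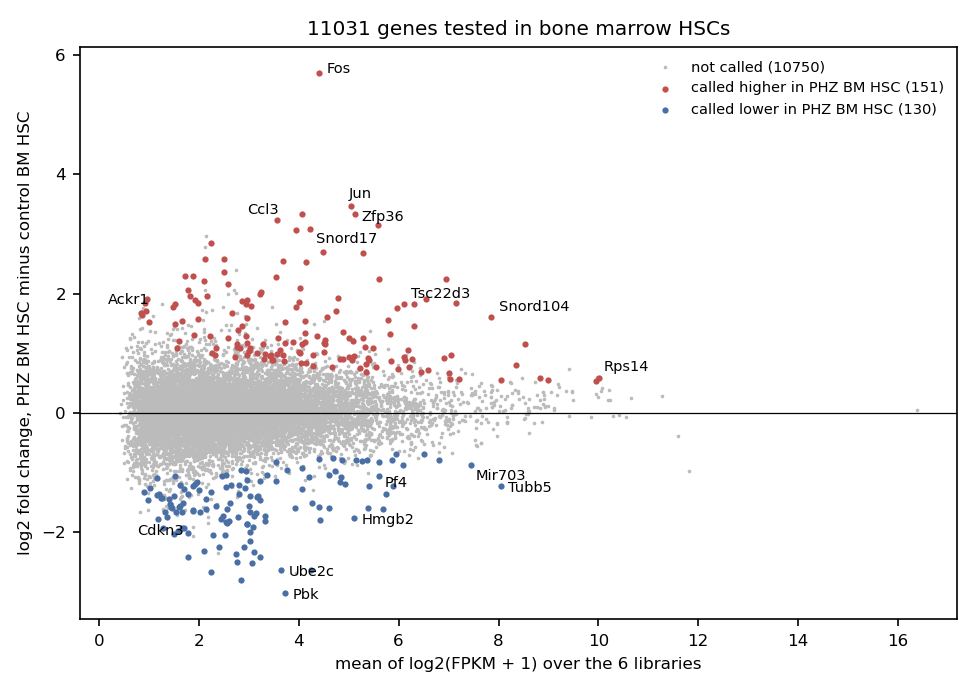
Each point is a gene, placed by its mean log2(FPKM + 1) over the 6 bone marrow HSC libraries (x axis) and by its log2 fold change, PHZ BM HSC minus control BM HSC (y axis). The 151 genes called higher (red) and 130 called lower (blue) lie on both sides of a cloud of 10750 genes that were not called, with Fos at 5.70 and Pbk at -3.02 as the extremes.

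Of the glucocorticoid targets 3 of 18 passed (16.7%), and of the FoxO factors and targets 3 of 33 (9.09%). All of these were higher, against 1.37% of all genes called higher. Per1 and Klf6, a call in each, are also members of the immediate early list. Tsc22d3, which encodes the glucocorticoid-induced leucine zipper and is also a FoxO target (chromosome X, positions 140539528 to 140600522, build GRCm38), was measured at 32.8, 36.5 and 37.5 FPKM in the control libraries and 124, 126 and 134 FPKM in the PHZ libraries. Values within each group lay close together and far from those of the other group, and the gene rose by 1.82 ± 0.13 on the log2 scale with an adjusted p of 0.00018. Pik3ip1, an inhibitor of PI3 kinase, was at 28.9, 30.9 and 34.1 FPKM in the control libraries and 95.2, 102 and 84.8 FPKM in the PHZ libraries and rose by 1.56 ± 0.14 on the log2 scale with an adjusted p of 0.00121. Ddit4, an inhibitor of mTORC1 that responds to glucocorticoids, low oxygen and stress, was at 3.95, 2.39 and 5.19 FPKM against 18.4, 16.1 and 19.1 FPKM (log2 fold change 2.0 ± 0.24, adjusted p = 0.00465). Per1, a clock gene with a glucocorticoid response, was at 2.88, 3.296 and 5.196 FPKM against 15.6, 14.9 and 25.3 FPKM (log2 fold change 2.02 ± 0.27, adjusted p = 0.00583). These 4 genes held their call whichever library was omitted, over all 6 such fits. In the list of glucocorticoid targets, 15 of 18 values were positive, and the median was 0.79 against 0.02 over all genes. The FoxO genes called were Tsc22d3, Pik3ip1 and the zinc finger factor Klf6 (log2 fold change 1.17 ± 0.19, adjusted p = 0.0163), and the median of that list was 0.40. Rgs2, a further glucocorticoid target, was at 8.23, 7.37 and 8.84 FPKM against 14.5, 18.01 and 12.7 FPKM and did not pass (adjusted p = 0.0668). Further higher genes, named after their values were seen, were Pnpla2, the first lipase of triglyceride breakdown (log2 fold change 0.95 ± 0.15, adjusted p = 0.0122), and Glul, glutamine synthetase (log2 fold change 1.06 ± 0.16, adjusted p = 0.0106). Ypel3, a growth suppressor chosen in the same way, was at 25.1, 24.1 and 24.2 FPKM against 54.4, 75.1 and 51.3 FPKM and rose by 1.25 ± 0.17 on the log2 scale with an adjusted p of 0.00764.

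Immediate early genes, transcription factors and RNA regulators that need no new protein to be induced, had the largest median of the 53 lists, 1.18. Of 39 tested, 21 were higher and none was lower. Fos, a subunit of the AP-1 factor, was at 1.13, 2.02 and 2.98 FPKM in the control libraries and 153, 141 and 162 FPKM in the PHZ libraries. The 3 PHZ values were alike and far above the control values, and it rose by 5.70 ± 0.23 on the log2 scale with an adjusted p of 5.88e-06. Zfp36, which destabilizes mRNAs of inflammatory genes, was at 10.004, 11.01 and 9.15 FPKM against 119.8, 120.3 and 92.5 FPKM (log2 fold change 3.33 ± 0.16, adjusted p = 2.08e-05). Junb, another AP-1 subunit, was at 14.1, 19.8 and 12.3 FPKM against 149, 137 and 139 FPKM (log2 fold change 3.14 ± 0.18, adjusted p = 5.88e-05). Rhob, a short-lived small GTPase, went from a mean of 4.39 ± 1.36 to 52.5 ± 10.5 FPKM (SD, n = 3 each; adjusted p = 0.00018) and Ier2 from 56.4 ± 8.36 to 271 ± 40.2 FPKM (adjusted p = 0.00018). Ppp1r15a, the phosphatase subunit that ends the integrated stress response, was at 6.97, 2.48 and 4.42 FPKM against 50.7, 45.02 and 36.2 FPKM and rose by 3.07 ± 0.29 on the log2 scale with an adjusted p of 0.00135. Its list, unfolded protein and integrated stress response, had 3 of 42 genes higher and none lower, the others being Ddit4 and the lipoprotein receptor Vldlr (log2 fold change 1.84 ± 0.28, adjusted p = 0.0112). The PHZ libraries summed to 1887, 1786 and 1700 FPKM over the immediate early list against 475, 430 and 483 in the control libraries.

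Signalling and secreted factors of inflammation rose in a small set, and the interferon response showed no call. The chemokine Ccl3 was at 1.06, 3.75 and 4.88 FPKM in the control libraries and 48.4, 50.7 and 17.5 FPKM in the PHZ libraries. All PHZ values exceeded all control values, although PHZ replicate 3 was lower than its partners, and the gene rose by 3.23 ± 0.46 on the log2 scale with an adjusted p of 0.00896. Ccl4, its neighbour, was at 37.8, 33.3 and 28.4 FPKM against 146, 156 and 64.2 FPKM (log2 fold change 1.75 ± 0.30, adjusted p = 0.018), and Ccl9, which is on no list, was at 0, 1.49 and 0.818 FPKM against 3.94, 7.56 and 11.7 FPKM (log2 fold change 2.30 ± 0.42, adjusted p = 0.0224). Ccl9 was highest in PHZ replicate 3, and without that library its log2 fold change was 1.97 (adjusted p = 0.0677). Nfkbiz, an inducible cofactor of NF-kB, was at 2.27, 3.59 and 2.87 FPKM against 9.25, 7.11 and 8.66 FPKM (log2 fold change 1.26 ± 0.22, adjusted p = 0.0183). With Ccl3 and Ccl4 it made up the 3 of 29 NF-kB factors and targets that passed (10.3%, against 2.55% of all genes). In that list 25 of 29 values were positive and the median was 0.40. Among 9 chemokine ligands tested, a family looked up after values were seen, the 3 named were higher and none was lower. Of all genes tested, 1.37% were called higher. Socs3, a feedback inhibitor of cytokine receptors, was at 1.36, 2.38 and 0.945 FPKM against 6.199, 9.94 and 25.7 FPKM, with PHZ replicate 3 highest. It rose by 2.36 ± 0.44 on the log2 scale with an adjusted p of 0.0239, and without that library its log2 fold change was 1.83 (adjusted p = 0.0342). Ptpn6 (SHP-1), a phosphatase that dampens the same receptors, rose by 0.69 ± 0.14 on the log2 scale with an adjusted p of 0.0385. Of 53 interferon response genes none passed with limma, 1 was higher and 12 were lower at an unadjusted p below 0.05, and limma voom on the recovered reads also called none. Macrophages are a rich source of these chemokines. Of the monocyte and macrophage genes limma called 0 of 11, with 1 at an unadjusted p below 0.05 and 0 by voom. Their summed levels were 263, 236 and 198 FPKM in the control libraries and 369, 351 and 172 FPKM in the PHZ libraries, with PHZ replicate 3 lowest. Most of that sum was Apoe, at 244, 221 and 173 FPKM in the control libraries and 354, 323 and 141 FPKM in the PHZ libraries. Of the 23 members that the marrow tables list, 4 were higher in every PHZ library than in every control library and none was lower, where 12.6% of all genes tested were higher in that way. These were Adgre1, Mpeg1 and Ms4a7, each under 1 FPKM throughout, and Cd14 at 0, 0 and 0.19 FPKM against 1.69, 1.63 and 0.66 FPKM. Cd68 reached 16.7 FPKM, Spic 5.304, Lgals3 4.91, C1qb 3.54 and Cd163 3.15, in groups that overlapped. Unlike Apoe, Cd68 (4.96, 9.8 and 16.7 FPKM in the PHZ libraries) and Lgals3 (2.01, 2.19 and 4.91 FPKM) were highest in PHZ replicate 3. Spic, C1qb and Cd163 were not. Csf1r reached 0.565 FPKM and Marco was at 0 in all 6 libraries. The part of such cells in the chemokine values was not tested.

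Further genes rose that were named by their rank and belong to no list, or to lists of another kind. Wfdc17, a secreted protease inhibitor of the whey acidic protein family, was at 9.36, 5.39 and 9.49 FPKM in the control libraries and 35.6, 77.7 and 64.1 FPKM in the PHZ libraries and rose by 2.69 ± 0.30 on the log2 scale with an adjusted p of 0.00325. Ctla2a, a cysteine protease inhibitor abundant in HSCs, was at 72.6, 74.7 and 75.5 FPKM against 212, 241 and 382 FPKM. It was highest in PHZ replicate 3 and rose by 1.85 ± 0.20 on the log2 scale with an adjusted p of 0.0032. Without that library its log2 fold change was 1.59 (adjusted p = 0.000805). Cd53, a tetraspanin of leukocytes, was at 4.68, 5.14 and 10.5 FPKM against 28.2, 33.01 and 76.3 FPKM and was again highest in PHZ replicate 3. It rose by 2.53 ± 0.38 on the log2 scale with an adjusted p of 0.0112, and without that library its log2 fold change was 2.10 (adjusted p = 0.0177). Clec2d, a lectin ligand of natural killer cell receptors, rose by 1.25 ± 0.16 on the log2 scale with an adjusted p of 0.00501. Lat2, an adaptor of immune receptors picked after its values were seen, was at 0.777, 0.674 and 1.51 FPKM against 5.34, 7.31 and 6.23 FPKM (log2 fold change 1.89 ± 0.25, adjusted p = 0.00609). Trim47, a ubiquitin ligase, was at 52.7, 53.5 and 36.4 FPKM against 133, 149 and 112 FPKM and rose by 1.46 ± 0.18 on the log2 scale with an adjusted p of 0.00477. Pbld1, a protein of the phenazine biosynthesis fold, was at 0.973, 0.4798 and 0.135 FPKM against 6.495, 6.17 and 6.22 FPKM (log2 fold change 2.29 ± 0.26, adjusted p = 0.00343).

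In the lists of HSC transcription factors and of HSC and progenitor surface genes, 4.55% and 4.76% of the genes tested passed. All were higher, and 2.55% of all genes passed. At that background share a list of their size would hold about 1 call. Gata2, a transcription factor needed for HSC maintenance, was at 41.1, 47.6 and 36.2 FPKM in the control libraries and 76.3, 86.8 and 66.7 FPKM in the PHZ libraries. Every PHZ value exceeded every control value, and the gene rose by 0.86 ± 0.16 on the log2 scale with an adjusted p of 0.0253. Spi1 (PU.1), the factor of myeloid and lymphoid fate, was at 29.2, 23.9 and 30.8 FPKM against 46.9, 44.2 and 52.2 FPKM (log2 fold change 0.76 ± 0.16, adjusted p = 0.0391). These were the 2 of 44 HSC transcription factors that passed, both higher, and the median of that list was 0.16. Both lost their call in some fits that left out a library, Gata2 passing in 2 of 6 and Spi1 in 0 of 6. Hes1, the main target of Notch signalling, was at 1.87, 1.02 and 0.358 FPKM against 7.88, 6.77 and 10.3 FPKM (log2 fold change 2.21 ± 0.30, adjusted p = 0.00764), and it passed in each of the 6 fits. Mfng, a glycosyltransferase that tunes Notch receptors, rose by 0.74 ± 0.14 on the log2 scale with an adjusted p of 0.0261, and its call held in 1 of those 6 fits. The related Rfng, which is on no list and was picked after its values were seen, was at 4.26, 6.66 and 5.25 FPKM against 11.3, 12.4 and 11.2 FPKM (log2 fold change 1.0 ± 0.20, adjusted p = 0.0359). Hes1 and Mfng were the 2 of 25 genes called in the Wnt and Notch list (8%, against 2.55% of all genes). The median of that list was -0.19, opposite in sign to those calls. Of 42 surface genes of HSCs and progenitors, 2 passed. Cd27, a TNF receptor family member of lymphoid-primed and short-term progenitors, was at 45.99, 46.1 and 55.2 FPKM against 104, 91.99 and 89.3 FPKM (log2 fold change 0.94 ± 0.14, adjusted p = 0.0107). Robo4, a receptor that helps keep HSCs in the niche, was at 3.63, 5.21 and 5.02 FPKM against 11.6, 10.8 and 8.94 FPKM (log2 fold change 1.03 ± 0.21, adjusted p = 0.0354), a call that was lost in each of the 6 fits with a library omitted. Procr, the endothelial protein C receptor and a marker of HSCs, was at 32.2, 48.8 and 38.9 FPKM against 77.6, 67.2 and 52.4 FPKM and did not pass (adjusted p = 0.101). The HSC genes Kit, Hlf and Mecom overlapped between the groups and did not pass. Flt3, a marker of multipotent progenitors, was at 3.97, 2.18 and 5.72 FPKM against 6.67, 8.58 and 10.8 FPKM with no overlap and an adjusted p of 0.113. Phlda2, an imprinted gene that inhibits growth, was at 7.94, 10.7 and 11.8 FPKM against 31.2, 27.6 and 22.9 FPKM. It rose by 1.35 ± 0.20 on the log2 scale with an adjusted p of 0.0106. Phlda2 was the sole call among 13 imprinted genes tested (7.69%, against 2.55% of all genes), whose median was -0.22. Rgs1, a brake on G protein-coupled chemokine receptors, was at 18.3, 12.4 and 11.9 FPKM against 62.4, 49.7 and 34.98 FPKM (log2 fold change 1.71 ± 0.24, adjusted p = 0.00859), and the phosphodiesterase Pde4b, which degrades cAMP, was at 6.297, 7.12 and 6.84 FPKM against 13.8, 14.3 and 14.5 FPKM (log2 fold change 0.97 ± 0.17, adjusted p = 0.0202). In the list of G protein signalling regulators these were 2 of 20 (10%, against 2.55% of all genes), with 17 of 20 values positive and a median of 0.40.

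**Figure D2:**
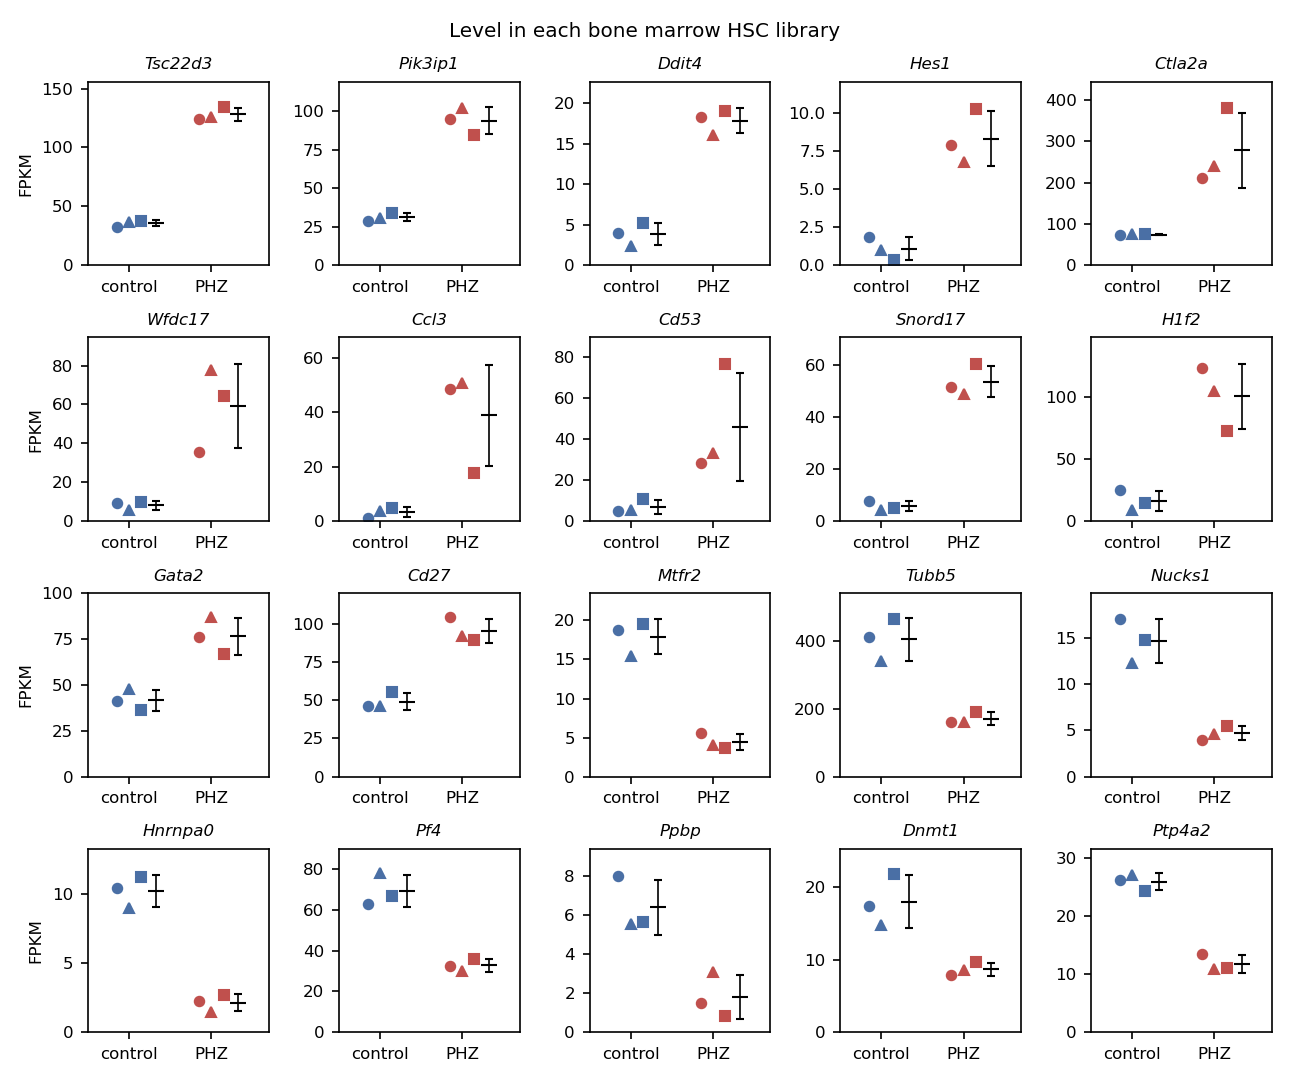
Each panel shows the FPKM level of a gene (y axis, from 0) in the 3 control (blue) and 3 PHZ (red) bone marrow HSC libraries, with replicates 1, 2 and 3 as circle, triangle and square, and the mean ± SD beside them. In every panel the groups do not overlap, and PHZ replicate 3 is the highest library for Cd53 at 76.3 FPKM and the lowest PHZ library for Ccl3 at 17.5 FPKM.

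Of the megakaryocyte and platelet genes 7.69% were called and of the neutrophil genes 4.0%, against 2.55% of all genes, and red cell, heme and iron genes had no call. At that background share a list of their size would hold 1 call or none. Pf4, platelet factor 4, a platelet chemokine that marks megakaryocytes and part of the HSC pool, was at 62.9, 77.7 and 66.5 FPKM in the control libraries and 32.4, 29.9 and 35.9 FPKM in the PHZ libraries. All PHZ libraries lay under all control libraries, and it fell by 1.05 ± 0.15 on the log2 scale with an adjusted p of 0.0087. Ppbp, the platelet basic protein gene, was at 7.99, 5.51 and 5.605 FPKM against 1.505, 3.06 and 0.857 FPKM (log2 fold change -1.45 ± 0.31, adjusted p = 0.0417), a call that held in 1 of the 6 fits with a library omitted. These were the 2 of 26 megakaryocyte and platelet genes that passed, and 18 of 26 values were negative. The integrin Itgb3 of the same list was at 4.95, 4.47 and 2.61 FPKM against 8.12, 9.38 and 12.2 FPKM (adjusted p = 0.0509). With voom on the recovered reads Pf4 was lower, Itgb3 was higher and Ppbp was not called. Prtn3, proteinase 3 of neutrophil granules, was at 81.2, 91.7 and 109.99 FPKM against 171, 169.6 and 214 FPKM and rose by 0.97 ± 0.16 on the log2 scale with an adjusted p of 0.014, the sole call among 25 neutrophil and granule genes. Summed over that list the control libraries held 713 to 1080 FPKM and the PHZ libraries 792 to 1365 FPKM, with PHZ replicate 3 highest. The lists of red cell proteins (22 genes tested), heme synthesis (21) and iron uptake, storage and sensing (21) each had 0 calls with limma and 0 by voom. At an unadjusted p below 0.05 they held 4, 1 and 4 genes. Of the red cell proteins, the water channel Aqp1 was at 9.15, 8.83 and 9.21 FPKM against 5.69, 3.67 and 6.299 FPKM, lower without overlap, at an adjusted p of 0.126. The transferrin gene Trf was at 1.53, 6.52 and 16.6 FPKM against 18.7, 17.4 and 19.4 FPKM, a spread within the control group of more than 10-fold, and did not pass (adjusted p = 0.196). Among 23 erythroid transcription factors Gata2 was the sole call. Lists of mature B cells, T and NK cells, and mast cells, basophils and eosinophils had 3, 7 and 3 members above the filter and no call, with 0, 1 and 1 genes at an unadjusted p below 0.05 and 0 by voom.

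Ribosomal protein genes had mostly positive values with few calls. Of 83 cytosolic ribosomal protein genes, 67 were positive, as were 5711 of all 11031 genes, and the median was 0.22. In that list 4 passed, all higher (4.82%, against 2.55% of all genes). Rps14 rose from a mean of 842 ± 9.71 to 1259 ± 103 FPKM (SD, n = 3 each; log2 fold change 0.58 ± 0.10, adjusted p = 0.0163). Rpl12 rose from 217 ± 8.27 to 319 ± 29.8 FPKM (adjusted p = 0.0372). Rps27 was measured far lower, at 3.1999, 2.75 and 3.36 FPKM against 14.9, 11.2 and 14.6 FPKM, although it too passed (adjusted p = 0.0032). Ribosomal protein genes have many near-identical copies in the genome, so that reads can be lost or shared, and the level of Rps27 is uncertain. The elongation factor Eef2 was at 429, 438 and 399 FPKM against 623, 621 and 602 FPKM (log2 fold change 0.54 ± 0.10, adjusted p = 0.0202) and the initiation factor Eif1 at 125, 117 and 122 FPKM against 179, 171 and 190.04 FPKM (log2 fold change 0.56 ± 0.11, adjusted p = 0.0357), the 2 calls among 57 translation factors, whose median was -0.03. Those 2 calls were 3.51% of the translation factors. The changes of Rps14, Rpl12, Eef2 and Eif1 were small, between 0.54 and 0.58. Each kept its call in at most 2 of the 6 fits with a library omitted. No gene was called with limma among 81 nuclear-encoded subunits of oxidative phosphorylation, 77 mitochondrial ribosomal proteins, 38 proteasome subunits, 53 ribosome biogenesis genes or 20 aminoacyl-tRNA synthetases. At an unadjusted p below 0.05 those lists held 15, 10, 6, 6 and 3 genes, and voom called none in any of them. Negative values were the majority for oxidative phosphorylation, at 55 of 81 with a median of -0.12, and for the proteasome, at 31 of 38 with a median of -0.16. Glycolysis had 0 of 33 called with limma, 7 at an unadjusted p below 0.05 and 1 by voom. The TCA cycle had 0 of 21, with 4 at an unadjusted p below 0.05 and 0 by voom. Among 45 lysosome and autophagy genes, 35 values were positive and Gaa, the lysosomal glucosidase, passed (log2 fold change 0.77 ± 0.16, adjusted p = 0.035). That call was 2.22% of the list, under the 2.55% of all genes.

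**Figure D3:**
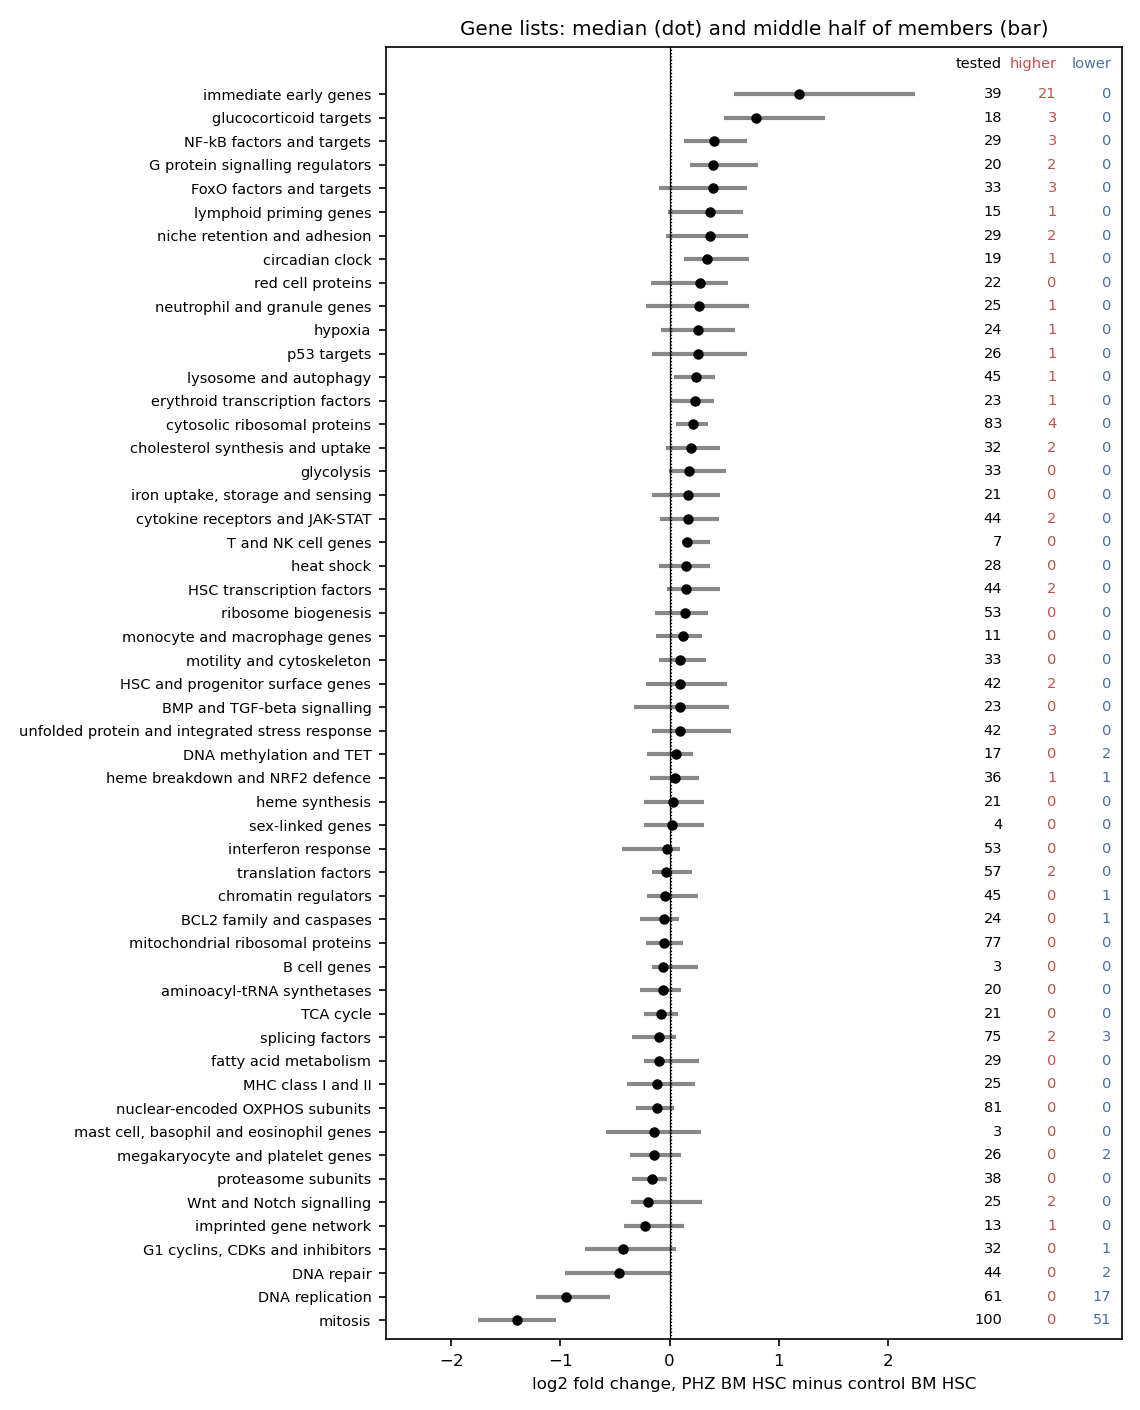
For each gene list the dot is the median and the bar the range from the lower to the upper quartile of the log2 fold changes of its tested members (x axis, PHZ BM HSC minus control BM HSC), with the numbers tested, called higher (red) and called lower (blue) at the right. The list of immediate early genes lies farthest to the right with a median of 1.18 and the list of mitosis genes farthest to the left with -1.40, while most others lie close to the dotted line at the median of all genes, 0.02.

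Small nucleolar RNAs, which guide chemical modification of ribosomal RNA, were a class of higher genes that was looked up after its members had been seen among the calls. Of 44 snoRNA genes tested, 7 were higher, where 1.37% of all genes were, and none was lower, 34 of 44 values were positive, and the median was 0.72. Snord17 (chromosome 2, positions 144265982 to 144266202, build GRCm38), which lies within the span of Snx5, was at 7.704, 4.18 and 4.905 FPKM in the control libraries and 51.6, 48.6 and 60.1 FPKM in the PHZ libraries. The groups were far apart, and it rose by 3.08 ± 0.22 on the log2 scale with an adjusted p of 0.00018. Snord104 was at 169, 104 and 129 FPKM against 403, 330.4 and 487 FPKM (log2 fold change 1.60 ± 0.20, adjusted p = 0.00465). Snord34, within the span of the ribosomal protein gene Rpl13a, was at 0, 1.58 and 1.11 FPKM against 15.1, 10.7 and 9.94 FPKM (log2 fold change 2.85 ± 0.35, adjusted p = 0.00472), and Snord118, a snoRNA needed to process pre-ribosomal RNA, at 3.77, 3.27 and 6.34 FPKM against 19.2, 27.8 and 49.8 FPKM (log2 fold change 2.54 ± 0.34, adjusted p = 0.00609). The genes that hold them did not move alike. Snx5 was at 24.7, 32.9 and 33.6 FPKM against 30.3, 36.02 and 33.95 FPKM (log2 fold change 0.14, adjusted p = 0.714). Rpl13a was at 18.3, 22 and 20.4 FPKM against 10.7, 12.4 and 13.8 FPKM (log2 fold change -0.68, adjusted p = 0.0797), with every PHZ value under every control value where its snoRNA was higher. Snord49b and Snord65 lie within the noncoding host 2410006H16Rik, which rose too, at 226, 251 and 268 FPKM against 579.8, 561 and 526 FPKM (log2 fold change 1.16 ± 0.11, adjusted p = 0.00138). The noncoding host transcript Epb41l4aos was also higher (log2 fold change 0.91 ± 0.13, adjusted p = 0.00764). Of the 44, 38 lay within the span of a tested gene, and the 34 different host genes had a median of 0.07 with 3 called higher and none lower. SMART-Seq2 primes on poly(A) tails, which mature snoRNAs lack, and strand was not considered, so reads of a snoRNA and of its host cannot be told apart.

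Histone genes were a further class picked after its members had been seen. Linker histones, which compact chromatin between nucleosomes, had 3 of 7 genes higher and none lower. Of all genes tested, 1.37% were called higher and 1.18% lower. H1f2 was at 24.6, 8.498 and 14.5 FPKM in the control libraries and 124, 105 and 72.6 FPKM in the PHZ libraries. Every PHZ value was far above every control value, and it rose by 2.67 ± 0.33 on the log2 scale with an adjusted p of 0.00477. H1f4 was at 16.7, 8.64 and 13.8 FPKM against 42.3, 47.3 and 33.1 FPKM (log2 fold change 1.61 ± 0.24, adjusted p = 0.0112) and H1f3 at 0.316, 0.372 and 0.891 FPKM against 4.2997, 4.48 and 3.62 FPKM (log2 fold change 1.77 ± 0.25, adjusted p = 0.0088). Among 39 core histone genes of the replication-dependent clusters, 7 were higher and 1 was lower, where 1.37% and 1.18% of all genes were. The higher ones were H3c6 (2.56, 3.04 and 3.54 FPKM against 18.2, 13.6 and 11.01 FPKM, log2 fold change 1.90, adjusted p = 0.00465), H4c14, H4c3, H4c4, H2bc8, H2ac6 and H2bu2, and the lower one was H2ac4 (32.3, 19.2 and 25.995 FPKM against 5.27, 11.1 and 7.68 FPKM, log2 fold change -1.59, adjusted p = 0.018). Of 9 variant histones, H3f3b, which codes for H3.3, was higher (log2 fold change 0.81 ± 0.15, adjusted p = 0.0263) and H2afz, which codes for H2A.Z, was lower (log2 fold change -0.79 ± 0.14, adjusted p = 0.0238). mRNAs of the clustered histone genes end in a stem-loop and mostly lack a poly(A) tail, and their copies are near-identical, so that levels of single genes are uncertain. The clustered genes are known as S phase genes, and most of those called went up in the same libraries in which replication genes went down.

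**Figure D4:**
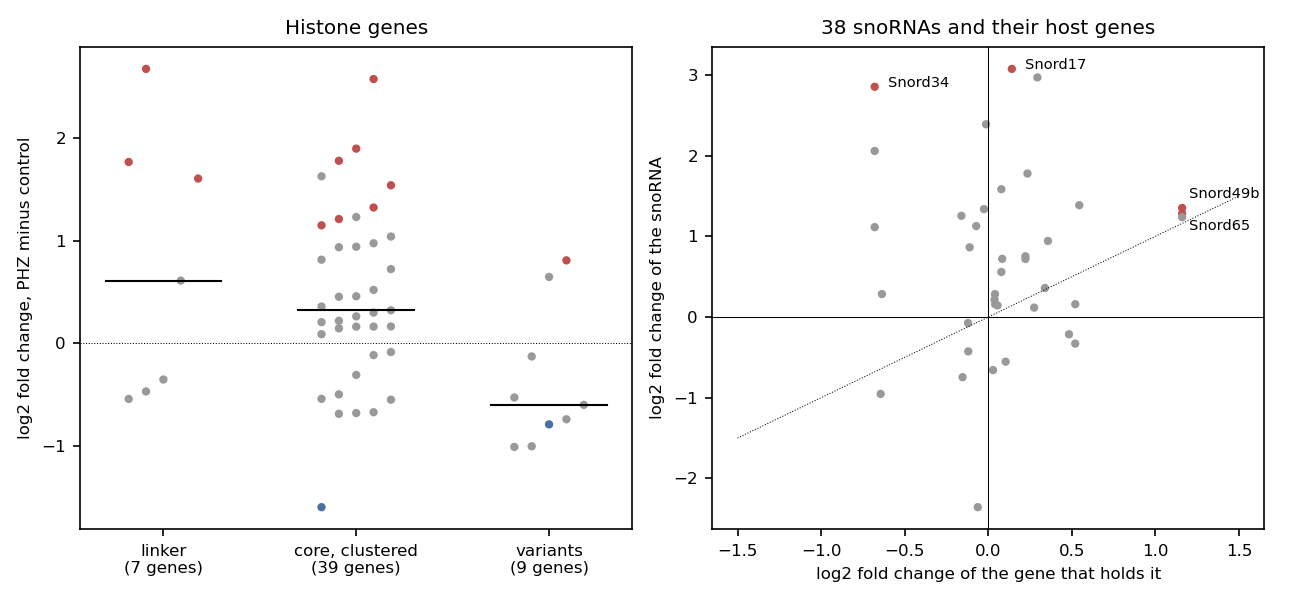
Left, log2 fold changes (PHZ BM HSC minus control BM HSC) of every histone gene tested in 3 classes, with the class median as a line, red for called higher, blue for called lower and grey for not called. Right, the log2 fold change of each of 38 snoRNAs (y axis) against that of the gene whose span holds it (x axis, the first listed where spans overlap), with equality as the dotted line, where Snord17 and Snord34 lie near 3 over hosts that were not called.

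The lower genes were led by cell division. Of 100 mitosis genes tested, 51 were lower and none was higher, 98 of 100 values were negative, and the median was -1.40. Pbk, a mitotic kinase, was at 37.1, 33.6 and 38.9 FPKM in the control libraries and 2.73, 2.63 and 6.26 FPKM in the PHZ libraries. PHZ replicate 3 had the highest PHZ value and still lay far below the lowest control value, and the gene fell by 3.02 ± 0.27 on the log2 scale with an adjusted p of 0.00106. Cenph, a kinetochore subunit, was at 16.2, 12.9 and 13.7 FPKM against 1.13, 3.001 and 1.95 FPKM (log2 fold change -2.37 ± 0.26, adjusted p = 0.0032), and Pimreg, a mitotic regulator, at 20.9, 15.2 and 18.2 FPKM against 0.872, 1.44 and 3.36 FPKM (log2 fold change -2.81 ± 0.31, adjusted p = 0.0032). Cep55, which acts in the last step of cytokinesis, was at 6.38, 5.48 and 9.35 FPKM against 0.396, 0.295 and 0.799 FPKM (adjusted p = 0.0032), and Ube2c, the ubiquitin-conjugating enzyme of the anaphase-promoting complex, at 33.8, 18.99 and 42.6 FPKM against 3.58, 3.34 and 5.44 FPKM (adjusted p = 0.00325). Summed over the list, the control libraries held 990, 709 and 1224 FPKM and the PHZ libraries 214, 259 and 343. Of 61 DNA replication genes, 17 were lower and none was higher, with a median of -0.95. Both subunits of ribonucleotide reductase, which makes deoxynucleotides, were among them, Rrm2 at 16.2, 11.2 and 20.1 FPKM against 2.77, 3.17 and 4.21 FPKM (log2 fold change -1.92 ± 0.25, adjusted p = 0.00541) and Rrm1 at 24.4, 23.5 and 27.1 FPKM against 9.06, 8.01 and 12.4 FPKM (log2 fold change -1.28 ± 0.19, adjusted p = 0.0112). So were the primase Prim1 (log2 fold change -1.41 ± 0.23, adjusted p = 0.0143) and the licensing pair Cdt1 (log2 fold change -1.40 ± 0.25, adjusted p = 0.0194) and Gmnn, or geminin (log2 fold change -1.51 ± 0.25, adjusted p = 0.0165). In DNA repair 2 of 44 were lower (4.55%, against 2.55% of all genes called), the recombination factor Rad51ap1 (log2 fold change -1.93 ± 0.30, adjusted p = 0.0123) and the glycosylase Neil3 (log2 fold change -1.98 ± 0.33, adjusted p = 0.0163). G1 cyclins, kinases and inhibitors had 1 of 32, or 3.12%, Cdkn3, a phosphatase of CDKs, at 5.46, 3.82 and 6.53 FPKM against 0.162, 1.08 and 0.7501 FPKM (log2 fold change -1.93 ± 0.30, adjusted p = 0.0116). Ccnd1, or cyclin D1, was at 4.89, 8.26 and 5.45 FPKM against 2.02, 1.68 and 3.498 FPKM, lower without overlap but not past the test (adjusted p = 0.077).

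Chromatin and cytoskeleton genes that dividing cells use were also among the genes that fell. Tubb5, a beta-tubulin, was at 411, 341 and 466 FPKM in the control libraries and 161, 162 and 193 FPKM in the PHZ libraries. Its highest PHZ value lay well under its lowest control value, and it fell by 1.23 ± 0.14 on the log2 scale with an adjusted p of 0.00362. With Tuba1b (log2 fold change -1.22 ± 0.21, adjusted p = 0.018) it made 2 of 10 alpha- and beta-tubulins lower and none higher, and Stmn1, or stathmin, a destabilizer of microtubules, was at 100.2, 73.97 and 102 FPKM against 43.9, 53.3 and 51.5 FPKM (log2 fold change -0.87 ± 0.17, adjusted p = 0.0273). Of 9 high mobility group genes, which bend or loosen chromatin, 3 were lower and none was higher. These were Hmgb2 at 66.9, 45.2 and 79.9 FPKM against 10.9, 20.7 and 23.9 FPKM (log2 fold change -1.77 ± 0.30, adjusted p = 0.0165), Hmgn2 (log2 fold change -1.36 ± 0.23, adjusted p = 0.0173) and Hmgn1 (log2 fold change -0.79 ± 0.15, adjusted p = 0.0286). Tubulins, Stmn1 and high mobility group genes were looked up after their values were seen. Their counts stand against 1.18% of all genes tested that were called lower. Mtfr2, a regulator of mitochondrial fission, was at 18.8, 15.4 and 19.6 FPKM against 5.64, 4.003 and 3.69 FPKM (log2 fold change -1.81 ± 0.21, adjusted p = 0.00362). Nucks1, a chromatin protein and substrate of cyclin-dependent kinases, was at 16.99, 12.2 and 14.7 FPKM against 3.997, 4.55 and 5.49 FPKM (log2 fold change -1.46 ± 0.21, adjusted p = 0.00841), and Pclaf, the PCNA clamp associated factor, at 4.68, 4.499 and 9.33 FPKM against 0.478, 0.512 and 1.21 FPKM (log2 fold change -2.01 ± 0.31, adjusted p = 0.0118). Knstrn and Pmf1 code for spindle and kinetochore proteins and were at 7.202, 7.51 and 12.6 FPKM against 1.01, 1.6996 and 1.498 FPKM and at 41.02, 36.1 and 46.8 FPKM against 15.6, 18.1 and 20.1 FPKM. They had adjusted p-values of 0.00514 and 0.0101. Tcf19, a factor of the G1 to S transition, fell by 1.86 ± 0.28 on the log2 scale with an adjusted p of 0.0112, and Trim59, a ubiquitin ligase, fell by 1.39 ± 0.19 on the log2 scale with an adjusted p of 0.00764. In the list of DNA methylation and TET genes, 2 of 17 were lower (11.8%, against 1.18% of all genes) and the median was 0.06. Both are also on the DNA replication list and among its 17 calls. Dnmt1, the maintenance methyltransferase, was at 17.4, 14.7 and 21.9 FPKM against 7.94, 8.55 and 9.71 FPKM (log2 fold change -0.95 ± 0.20, adjusted p = 0.0385) and Uhrf1, which recruits it to replicated DNA, at 11.6, 11.6 and 22.8 FPKM against 3.31, 2.46 and 5.86 FPKM (log2 fold change -1.73 ± 0.33, adjusted p = 0.0261). The dioxygenases Tet1, Tet2 and Tet3 overlapped between the groups. Ezh2, the methyltransferase of Polycomb complex 2, fell by 1.25 ± 0.25 on the log2 scale with an adjusted p of 0.0309. It was the sole call among 45 chromatin regulators (2.22%, against 2.55% of all genes called).

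Promoter sequences of the named genes were read from RefSeq (build GRCm38.p6) to show which short motifs stand before genes that moved. A promoter was the window from 250 bases before to 50 bases after a start site, and 8871 of the 11031 genes tested (80.4%) had at least 1, giving 11173 windows. The first 250 bases are shown for 2 immediate early genes, a mitosis gene and a replication gene that hold a motif before the start, 5′ to 3′ on the gene's own strand. Capitals mark the CArG box (CC, 6 of A or T, GG) bound by serum response factor, the CCAAT box (CCAAT) bound by NF-Y, and the cell cycle homology region or CHR (TTTGAA) bound by the DREAM and MuvB complexes, on either strand. Other motifs named below are left in lower case. Zfp36 lies at chr7:28379229-28379478 (minus strand), Junb at chr8:84978749-84978998 (minus), Ube2c at chr2:164769679-164769928 (plus) and Rrm2 at chr12:24708004-24708253 (plus).
Zfp36: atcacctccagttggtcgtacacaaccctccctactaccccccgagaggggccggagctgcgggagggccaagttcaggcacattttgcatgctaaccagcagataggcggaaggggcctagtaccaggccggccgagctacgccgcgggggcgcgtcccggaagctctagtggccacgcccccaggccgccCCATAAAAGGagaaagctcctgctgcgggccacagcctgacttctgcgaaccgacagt
Junb: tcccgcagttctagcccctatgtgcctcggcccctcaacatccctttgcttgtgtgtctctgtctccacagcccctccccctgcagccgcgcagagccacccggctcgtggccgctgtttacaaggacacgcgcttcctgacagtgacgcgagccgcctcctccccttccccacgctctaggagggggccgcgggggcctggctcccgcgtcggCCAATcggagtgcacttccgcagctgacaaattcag
Ube2c: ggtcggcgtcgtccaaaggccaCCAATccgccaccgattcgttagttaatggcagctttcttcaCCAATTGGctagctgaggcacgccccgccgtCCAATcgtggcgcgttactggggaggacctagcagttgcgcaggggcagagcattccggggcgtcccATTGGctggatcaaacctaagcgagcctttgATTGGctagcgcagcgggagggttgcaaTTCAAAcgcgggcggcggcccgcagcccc
Rrm2: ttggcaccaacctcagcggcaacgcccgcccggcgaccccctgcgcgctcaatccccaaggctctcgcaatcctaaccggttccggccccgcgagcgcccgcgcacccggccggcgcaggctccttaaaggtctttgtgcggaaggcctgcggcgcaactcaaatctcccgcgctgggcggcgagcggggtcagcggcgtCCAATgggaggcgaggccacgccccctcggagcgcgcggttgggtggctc

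The Zfp36 window holds a CArG box that begins 58 bases before the start site. Ube2c holds 6 overlapping or separate CCAAT boxes and a CHR that begins 29 bases before the start. Rrm2 and Junb hold a CCAAT box each, 50 and 36 bases before it. In the full windows of mitosis genes the CHR was present in 61.1% of 90 promoters and the CCAAT box in 74.4%, against 12.3% and 38.3% of all promoters of genes tested. Both were present together in 47.8% of mitosis promoters and in 4.99% of all. DNA replication genes held the CHR in 18.6% and the CCAAT box in 57.6% of 59 promoters. Genes called lower that are on neither list held the CHR in 19.3% of 57 promoters, and immediate early genes in 20% of 45. The CArG box was in 6.67% of 45 promoters of immediate early genes and in 1.26% of all, and the CRE (TGACGTCA) in 8.89% and 3.1%. Mitosis promoters held the CRE in 7.78%. The AP-1 site (TGAGTCA) was in 2.22% of immediate early and 3.45% of all promoters. The GC box (GGGCGG) was in 66.7% of immediate early, 78.9% of mitosis and 63.2% of all promoters, and the FoxO site (TGTTTAC) in 6.67%, 5.56% and 2.65%. Both strands were read for each motif, none of the motifs contains another, and the windows of genes called higher were left out of the shares because only 74.8% of those genes had one. These shares describe letters in a window and were not tested.

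Other genes that fell have varied roles. Hnrnpa0, an RNA-binding protein that stabilizes mRNAs, was at 10.4, 8.95 and 11.2 FPKM in the control libraries and 2.29, 1.48 and 2.69 FPKM in the PHZ libraries. The groups were far apart, and it fell by 1.84 ± 0.23 on the log2 scale with an adjusted p of 0.00465. Among 75 splicing factors 6.67% were called, against 2.55% of all genes. Of these 3 were lower, Hnrnpa0, Hnrnpab (log2 fold change -1.04 ± 0.19, adjusted p = 0.0213) and Srsf3 (log2 fold change -0.80 ± 0.16, adjusted p = 0.0357), and 2 were higher, Srsf5 at 67.6, 77.9 and 75.4 FPKM against 127, 121 and 117 FPKM (log2 fold change 0.72 ± 0.13, adjusted p = 0.0187) and the splicing kinase Clk1 (log2 fold change 0.90 ± 0.19, adjusted p = 0.0413). Ptp4a2, a phosphatase linked to HSC self-renewal, was at 26.2, 27.1 and 24.2 FPKM against 13.5, 10.8 and 11.01 FPKM (log2 fold change -1.08 ± 0.17, adjusted p = 0.0118). Gnb1 and Prdx4 were named after their values were seen. The G protein subunit Gnb1 fell by 0.97 ± 0.16 on the log2 scale with an adjusted p of 0.014. Prdx1 and Prdx4, peroxiredoxins that remove hydrogen peroxide, were at 72.8, 80.2 and 79.6 FPKM against 41.2, 45.99 and 56.1 FPKM and at 34.97, 41.4 and 46.3 FPKM against 21.03, 16.3 and 19.1 FPKM, with adjusted p-values of 0.0463 and 0.014. In the list of heme breakdown and NRF2 defence, which holds Prdx1, the glutathione transferase Gstm1 moved the other way (log2 fold change 0.92 ± 0.19, adjusted p = 0.0355), and these were the 2 of 36 genes called. Bok, a pro-apoptotic BCL2 relative, was the sole call among 24 BCL2 family and caspase genes (log2 fold change -1.59 ± 0.30, adjusted p = 0.0283). Among uncharacterized loci, 2610524H06Rik was at 47.1, 45.3 and 42.2 FPKM against 18.02, 17.9 and 21.4 FPKM (log2 fold change -1.19 ± 0.15, adjusted p = 0.0051) and the long noncoding RNA 2810408I11Rik at 4.58, 3.97 and 2.799 FPKM against 0.192, 0.107 and 0.464 FPKM (log2 fold change -1.92 ± 0.27, adjusted p = 0.00764). At the locus of the miRNA Mir703 values were 242, 223 and 241 FPKM against 119.6, 134 and 129.8 FPKM (log2 fold change -0.88 ± 0.11, adjusted p = 0.00561), which are reads over the miRNA gene and not mature miRNA.

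The remaining lists had at most 2 calls each, all of them higher. Where a list had a call, 3.85% to 6.9% of its tested genes passed, against 2.55% of all genes. At that background share a list of this size would hold about 1 call or none. In cholesterol synthesis and uptake, 2 of 32 passed. The first was Mylip, which marks the LDL receptor for degradation (log2 fold change 1.38 ± 0.27, adjusted p = 0.0303). The other was Fdft1, squalene synthase (log2 fold change 0.93 ± 0.19, adjusted p = 0.0385). The call of Fdft1 was lost in each of the 6 fits with a library omitted. Niche retention and adhesion had 2 of 29 (Cd53 and Robo4, median 0.37). Cytokine receptors and JAK-STAT had 2 of 44 (Socs3 and Ptpn6, median 0.17). Socs3, and Per1 and Btg2 named next, are also members of the immediate early list. Hypoxia had 1 of 24 (Ddit4), circadian clock 1 of 19 (Per1), lymphoid priming 1 of 15 (Cd27) and p53 targets 1 of 26, the antiproliferative gene Btg2 at 1.34, 1.41 and 3.06 FPKM against 13.2, 12.8 and 9.33 FPKM (log2 fold change 2.15 ± 0.27, adjusted p = 0.00477). No gene was called with limma or with voom among 25 MHC genes, 33 motility and cytoskeleton genes, 28 heat shock genes, 23 BMP and TGF-beta genes, 29 fatty acid genes or 4 sex-linked genes. At an unadjusted p below 0.05 those lists held 11, 6, 6, 6, 2 and 0 genes, where 1959 of all 11031 genes reached that level. The 11 MHC genes were split, with 5 higher and 6 lower.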

How the data were processed

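Bone marrow HSCs were enriched for c-kit+ cells with magnetic beads and sorted, RNA was extracted with Trizol and treated with DNase, cDNA was made by SMART-Seq2, and libraries were made with Nextera XT. Per the labels and the study's methods, reads were mapped to mm10 with STAR, and the gene counter, annotation and use of strand are not given in the sources used here. The deposited values are FPKM, in 1 table for each group of libraries, and the tables may have been scaled separately. Reads were worked back over the 8 libraries of the series, spleen included, for genes listed in all 3 tables. The step of a gene was chosen so that all its values became whole numbers of reads within 0.001 reads, which gave the depths. All 108151 values above 0 met this, but through that choice, so it is not a separate check of the depths. Deposited tables of the authors' own DESeq2 comparisons with spleen HSCs hold fold changes and p-values and were not used.

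The 6 libraries were rescaled with 1 set of median-of-ratios factors (largest change 1.18%). Genes were matched by gene ID between tables. log2(FPKM + 1) was tested with limma 3.58.1 in R 4.3.3 (trend and robust options, two-sided, no block, Benjamini-Hochberg adjustment over 11031 genes, threshold 0.05), after the procedure had been tested on simulated data. Tables were handled with Python 3.11.15, numpy 2.4.6 and pandas 2.3.3. Gene names and positions came from RefSeq (GRCm38.p6). The members and gene lists were chosen with earlier results of these data known. Genes were named by rule: the 15 higher and the 15 lower genes with the smallest p outside the immediate early, mitosis and DNA replication lists, the 5 members with the smallest p of each of those lists, up to 4 members of every other list with any further member called, and the cell type markers. No member of the list of mitochondrially encoded genes was found in the tables used here. Not every gene that the rule allows is described, some are not reported here, and genes outside it are said to be so. Alternatives changed the scaling, pseudocount, filter, variance model, libraries fitted and replicate block, or used limma voom on the recovered reads.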

Additional observations from a re-analysis of the deposited data

How the results depend on the processing

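The 281 calls (151 higher and 130 lower) became 126 (73 and 53) when genes were not filtered on low values. Without limma's trend and robust options 96 genes were higher, of 198 in all. The other alternatives gave 232 to 315 calls, with limma voom on recovered reads at 232, of which 196 were among the 281, and the fit of all 8 libraries at 311. Over these and the fits above the share of calls that were higher ran from 47% under upper-quartile scaling to 61.6% with a mean of at least 5 FPKM, against 53.7%. Leaving out 1 library gave 81 to 269 calls, with 46 to 131 higher and 31 to 138 lower, and with 48.7% to 67.8% of calls higher, the lowest counts being without PHZ replicates 1 and 2 and control replicate 3 (85, 81 and 121). Fits without a library have fewer samples, and the cause of the spread among them was not tested. Libraries with the same number did not deviate together (correlations of -0.007, 0.005 and 0.062 over genes), so the numbers do not pair them. With the replicate number as a block there were 295 calls. The adjusted p rose to or above 0.05 in 208 of 756 fits of a named gene with a library omitted and in 91 of 1118 under the other alternatives, and list medians moved by more than the spread of library medians in 12 of 318 and 24 of 476. Of 126 named genes, 4 changed sign, each without PHZ replicate 3, and all are genes that were high in that library. Over the fits without a library the log2 fold change of Hmox1 ran from -0.36 to 1.61, of Cdkn1a from -0.11 to 1.26, of Serpina3g from -0.23 to 0.59 and of Slfn2 from -0.17 to 1.09.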

Other observations

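Several single genes were highest in PHZ replicate 3, and all of those given here were chosen after their values were seen. Hmox1, heme oxygenase 1, which opens heme for iron recycling, was at 1.803, 5.68 and 10.4 FPKM in the control libraries and 3.18, 4.22 and 63.1 FPKM in the PHZ libraries. The metallothioneins Mt1 and Mt2, which bind zinc and copper, were at 8.56, 14.5 and 15.2 FPKM against 20.9, 25.996 and 97.2 FPKM and at 1.21, 0.376 and 2.12 FPKM against 3.098, 2.91 and 41.95 FPKM. Hspb1, a small heat shock protein, was at 0.889, 0.107 and 0 FPKM against 0.186, 1.04 and 37.95 FPKM. In each of these PHZ replicate 3 lay above every other library. Replicates 1 and 2 lay within or below the control values for Hmox1 and somewhat above them for Mt1 and Mt2, and none passed the limma test (adjusted p = 0.653, 0.142, 0.215 and 0.4).

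Other genes with their highest value in the same library have varied roles. Cish, a STAT5 target, was at 14.8, 9.397 and 8.96 FPKM against 18.1, 19.4 and 90.3 FPKM, so that all PHZ values exceeded all control values (adjusted p = 0.175). Pim2, a survival kinase, was at 8.35, 6.09 and 8.102 FPKM against 16.5, 25.7 and 60.8 FPKM and was called (log2 fold change 1.86 ± 0.39, adjusted p = 0.0393), as it was without PHZ replicate 3, where its log2 fold change was 1.36 (adjusted p = 0.0362). Xbp1, a factor of the unfolded protein response, was at 40.3, 30.9 and 30.5 FPKM against 38.4, 36.8 and 136 FPKM, and Cdkn1a, the p21 inhibitor of cyclin-dependent kinases, at 2.099, 0.691 and 0.401 FPKM against 0.776, 0.827 and 10.8 FPKM. Serpina3g, an interferon-induced protease inhibitor of HSCs, was at 175, 180.01 and 145 FPKM against 144, 138 and 437 FPKM, and Slfn2, a factor of immune cell quiescence, at 12.9, 16.3 and 10.1 FPKM against 9.91, 12.9 and 60.97 FPKM. Sums over whole lists differed less. Cytokine receptors and JAK-STAT genes summed to 809, 804 and 813 FPKM in PHZ replicates 1, 2 and 3, and heme breakdown and NRF2 defence genes to 1839, 1934 and 2185 FPKM. Summed levels were 2546, 2426 and 3798 FPKM for interferon response genes and 911, 858 and 1462 FPKM for genes of the unfolded protein and integrated stress response. The labels name nothing that sets this library apart, and what moved with it was not tested.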
